A study of Mus musculus with 17 samples.

Results

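The MHC class I presentation genes described here are 10 of the 48820 genes in the deposited count table. They are the light chain B2m, the heavy chains H2-K1, H2-D1, H2-Q4, H2-Q6, H2-Q7, H2-T22 and H2-T23, the peptide transporter subunit Tap2 and the transactivator Nlrc5. They were taken by gene symbol, with no threshold on a measured value, and all 10 passed the filter on low counts. The list was chosen with earlier results of these data known. Counts of members called, set beside the share over all genes, therefore describe this list and are not independent support. The comparison between stem cell populations asks whether class I is low in hair follicle stem cells.

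RNA was sequenced from mouse epidermal stem cells in 17 libraries, each from 1000 sorted GFP+ cells. The groups were Pelo -/- Lgr5 (n = 3), WT Lgr5 (n = 3), Pelo -/- Lrig1 (n = 3), WT Lrig1 (n = 2), Pelo -/- Lgr6 (n = 3) and WT Lgr6 (n = 3). All animals were C57BL/6 mice aged 3 months, all were treated with 4-OHT, and all carried EGFP-CreERT2 at Lrig1, Lgr5 or Lgr6. Pelo -/- animals were Pelo fl/fl, and the animals labelled WT were Pelo fl/+, so the controls carried a floxed Pelo allele, the Cre driver and the 4-OHT treatment too. Cre and GFP were thus driven by the receptor gene that names each population, and only cells expressing GFP were sampled. Nothing in the labels says which libraries came from separate animals, so the p-values measure the spread between these libraries, which may in part be technical.

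A class I molecule is a heavy chain paired with beta-2 microglobulin, the B2m product, around a peptide cut by the proteasome and carried into the endoplasmic reticulum by the TAP1-TAP2 transporter. Cytotoxic T cells read the peptide, while natural killer cells are held back by class I itself. NLRC5 is recruited to a conserved promoter module of these genes, made of W/S, X1, X2 and Y boxes, and interferon regulatory factors and NF-kappa B act on nearby enhancer elements. In skin, Lgr5 marks stem cells of the lower bulge and the hair germ, Lrig1 marks the junctional zone of the upper follicle and Lgr6 marks the isthmus and parts of the interfollicular epidermis. The lower hair follicle is classically described as a site of low class I display and immune privilege.

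Promoter windows of 8 members were present in the RefSeq sequence table of GRCm38.p6, from 250 bases before to 50 bases after the gene start. Of the 8, 5 are printed because these genes moved together between populations while the size of the difference ranged widely. Both strands were searched for the interferon regulatory factor core TTTCNNTT, a kappa B consensus, the X2 box core TGACG and the CCAAT box of the Y element, and capitals mark every match on either strand. The windows are B2m chr2:122147437-122147736 (plus strand), H2-K1 chr17:34000298-34000597 (minus), H2-Q6 chr17:35424600-35424899 (plus), H2-T22 chr17:36042693-36042992 (minus) and H2-T23 chr17:36032652-36032951 (minus), each read 5′ to 3′ on the gene's strand.
B2m: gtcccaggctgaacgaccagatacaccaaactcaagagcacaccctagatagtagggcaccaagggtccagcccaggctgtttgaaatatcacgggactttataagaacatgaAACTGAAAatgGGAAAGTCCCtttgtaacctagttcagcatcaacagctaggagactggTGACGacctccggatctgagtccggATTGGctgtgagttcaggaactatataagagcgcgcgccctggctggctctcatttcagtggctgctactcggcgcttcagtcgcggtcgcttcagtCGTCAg
H2-K1: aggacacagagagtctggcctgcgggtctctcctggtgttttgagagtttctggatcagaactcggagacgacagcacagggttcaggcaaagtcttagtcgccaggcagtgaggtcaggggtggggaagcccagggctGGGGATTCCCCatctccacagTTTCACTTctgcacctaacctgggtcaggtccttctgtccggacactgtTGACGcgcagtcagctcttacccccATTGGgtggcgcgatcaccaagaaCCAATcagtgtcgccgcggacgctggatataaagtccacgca
H2-Q6: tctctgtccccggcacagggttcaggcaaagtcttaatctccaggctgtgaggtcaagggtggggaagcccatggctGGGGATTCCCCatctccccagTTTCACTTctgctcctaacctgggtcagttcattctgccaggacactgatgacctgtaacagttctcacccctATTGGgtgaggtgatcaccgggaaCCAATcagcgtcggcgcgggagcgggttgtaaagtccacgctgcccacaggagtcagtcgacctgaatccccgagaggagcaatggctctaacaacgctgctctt
H2-T22: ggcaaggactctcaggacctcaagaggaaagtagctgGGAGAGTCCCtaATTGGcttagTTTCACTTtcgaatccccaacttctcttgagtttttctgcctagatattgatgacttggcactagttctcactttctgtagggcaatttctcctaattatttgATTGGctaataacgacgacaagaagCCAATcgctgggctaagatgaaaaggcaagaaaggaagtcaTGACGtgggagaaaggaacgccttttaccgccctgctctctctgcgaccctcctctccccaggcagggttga
H2-T23: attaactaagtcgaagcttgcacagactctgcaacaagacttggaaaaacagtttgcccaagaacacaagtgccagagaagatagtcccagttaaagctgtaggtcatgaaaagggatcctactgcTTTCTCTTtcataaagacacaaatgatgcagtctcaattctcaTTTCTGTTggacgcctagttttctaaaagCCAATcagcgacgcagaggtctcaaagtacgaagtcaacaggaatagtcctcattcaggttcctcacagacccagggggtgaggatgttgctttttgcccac

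All of the searched motifs were found in the windows of B2m, H2-K1, H2-D1, H2-Q4, H2-Q7 and H2-T22. The H2-Q6 window held no TGACG, and the H2-T23 window held neither a kappa B match nor TGACG. No match of 1 motif overlapped a match of another. Of all 32851 RefSeq windows of this length, 23.9% held the interferon regulatory factor core, 4.51% the kappa B consensus, 20.8% TGACG and 37.4% CCAAT, and 30 windows (0.0913%) held all of them. The motifs were picked because class I promoters are known for them, and the heavy chain genes are related in sequence, so these matches describe the letters in the windows and nothing more.

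Library totals ran from 9647507 to 28098841 counts, lowest in WT Lgr5 replicate 3. Lgr5 mRNA was at 467 to 549.8 CPM (counts scaled to library size with TMM factors) in Pelo -/- Lgr5 libraries and at 276 to 570.0 CPM in WT Lgr5 libraries, against at most 29.4 CPM in any other library. Lrig1 mRNA did not mark the Lrig1 sort against the Lgr6 sort, with 7.42 to 37.7 CPM in Pelo -/- Lrig1 libraries and 39.3 to 58.8 CPM in Pelo -/- Lgr6 libraries. Pelo counts did not fully separate the genotypes in any population, with 11.8 to 23.6 CPM in Pelo -/- Lgr5 and 5.90 to 17.4 CPM in WT Lgr5 libraries. In Lrig1 cells Pelo was at 0.483 to 3.82 CPM in Pelo -/- and 3.72 to 6.05 CPM in WT libraries (log2 fold change -1.495 ± 0.831 SE, not called). In Lgr6 cells it was at 3.10 to 4.94 CPM in Pelo -/- and 2.02 to 5.39 CPM in WT libraries. No label says which exons the floxed allele loses. Satellite-like predicted genes held 10.2%, 4.08% and 25.4% of counts in WT Lgr5 replicates 1 to 3. They held 1.72%, 6.45% and 9.42% in Pelo -/- Lgr5 replicates 1 to 3, and 0.237% to 2.83% in Lrig1 and Lgr6 libraries. Mitochondrial genes held 3.69% to 15.3% in Lgr5 libraries and 4.66% to 7.68% in the others. TMM factors were 0.990 to 1.91 in Lgr5 libraries and 0.688 to 0.964 in the others. Library make-up thus differed with the population, and the 2 cannot be told apart. Over all 30405 genes tested, the median log2 fold change was 0.99 for WT Lgr5 over WT Lrig1 and 0.49 for WT Lgr5 over WT Lgr6, while it was 2.01 and 1.38 with library totals alone as the scale. The split of calls moved with the scale too: 2765 genes were lower and 604 higher in WT Lgr5 than in WT Lrig1 with TMM, against 1274 lower and 2019 higher with library totals alone.

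Class I transcripts were low in Lgr5 cells. Of the 10 members, 9 fell in WT Lgr5 cells relative to WT Lrig1 cells and the same number fell relative to WT Lgr6 cells, and the member that did not pass was Tap2 in both comparisons. No member rose. Over all genes tested, 9.09% fell and 1.99% rose in WT Lgr5 relative to WT Lrig1, and 10.6% fell and 1.57% rose relative to WT Lgr6. Every WT Lgr5 library lay below every WT Lrig1 library for 9 members, as it did for 19.7% of all genes, and below every WT Lgr6 library for 9 members, as for 17.2% of all genes. The median log2 fold change of the members was -3.16 over WT Lrig1 and -3.35 over WT Lgr6, below the medians of all genes given above. With only genes of at least 5 CPM on average, the medians of the members were -2.39 and -2.54. Those of all genes were then 0.06 and 0.04. In these bulk libraries, fewer cells with class I transcripts and less class I RNA per cell cannot be told apart.

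Summed over the members, class I took 0.0908% to 0.199% of the counts in the 6 Lgr5 libraries, with a median of 0.147%, against 0.557% to 0.847% in the other 11 libraries, with a median of 0.662%. On the TMM scale the sum was 479 to 1587 CPM in Lgr5 libraries and 6936 to 12310 CPM in the others. The ranges did not overlap on either scale. Without WT Lgr5 replicates 1 and 3, the WT Lgr5 libraries with the most satellite-like counts, 6 members were lower than in WT Lrig1 and 7 lower than in WT Lgr6, with the remaining WT Lgr5 library assumed to vary like the other groups. H2-Q4 was lost over WT Lrig1 only (log2 fold change -2.39, adjusted p = 0.0669), and H2-T23 and Nlrc5 over both.

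**Figure D1:**
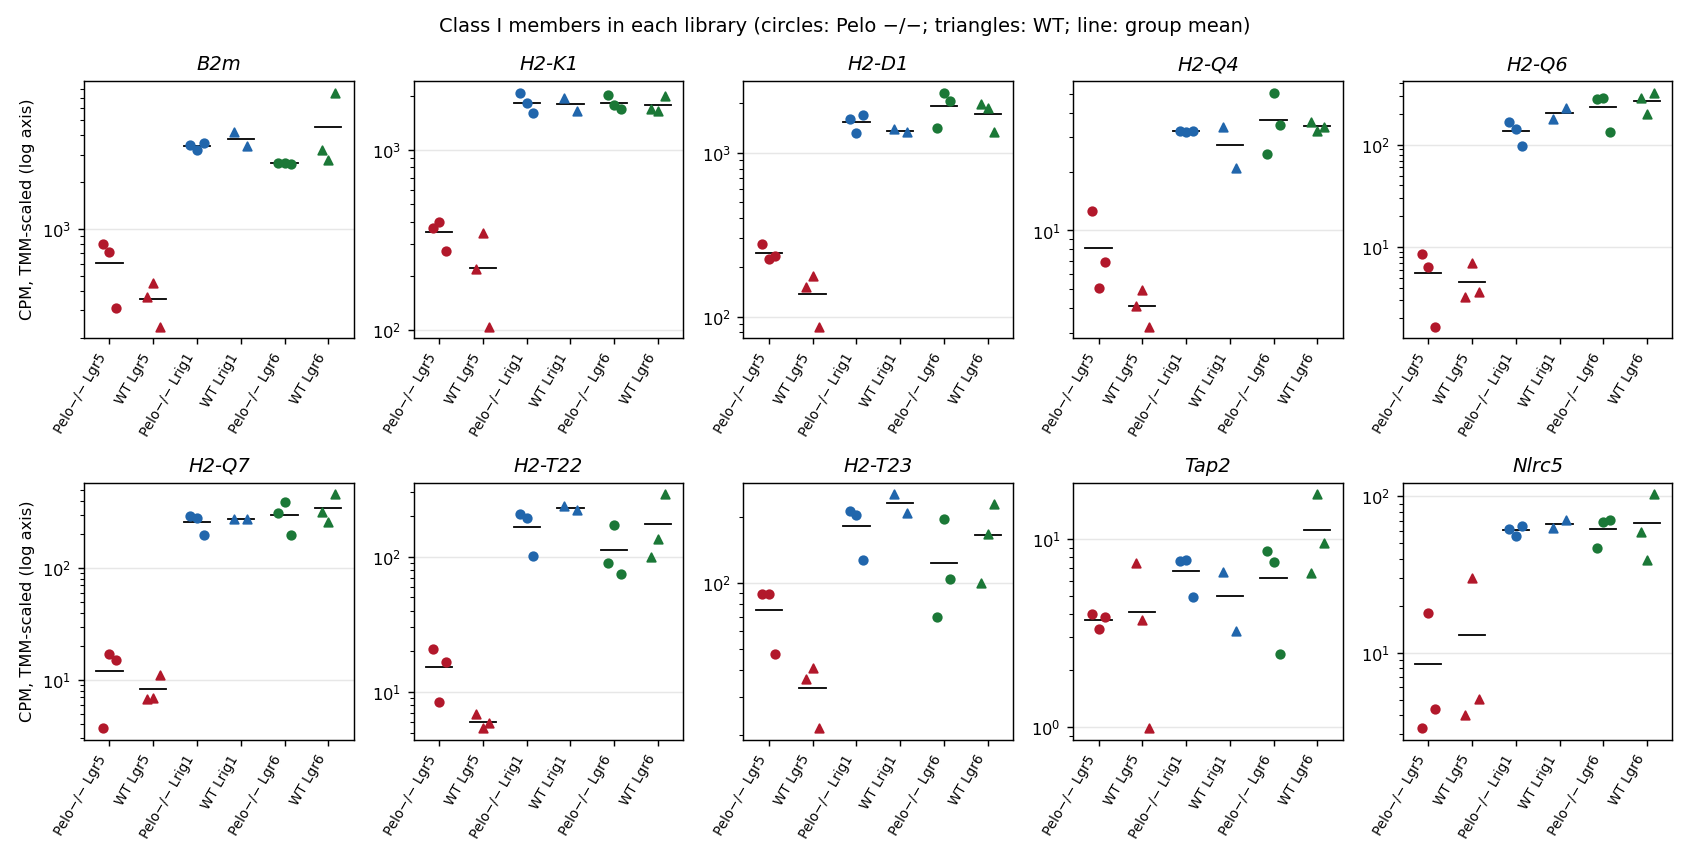
TMM-scaled CPM of each of the 10 members in each of the 17 libraries, on log axes, by group (circles for Pelo -/-, triangles for WT, horizontal line for the group mean). In all panels but those of Tap2 and H2-T23, every Lgr5 library lies below every Lrig1 and Lgr6 library.

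B2m (ENSMUSG00000060802.8; chromosome 2, 122147686 to 122153083, plus strand, GRCm38) encodes the light chain without which classical heavy chains do not reach the cell surface. It had 798, 712 and 309.5 CPM in Pelo -/- Lgr5 libraries, against 368, 452 and 236 CPM in WT Lgr5 libraries. Pelo -/- Lrig1 libraries had 3497, 3230.0 and 3594 CPM, against 4207 and 3414 CPM in WT Lrig1 libraries. In Pelo -/- Lgr6 libraries it had 2677, 2674 and 2624 CPM, against 3223, 2790.0 and 7539 CPM in WT Lgr6 libraries. Every Lgr5 library was below every other library, and WT Lgr6 replicate 3 stood far above the rest. B2m was 10.8-fold lower in WT Lgr5 than in WT Lrig1 cells (log2 fold change -3.44 ± 0.46 SE, adjusted p = 1.30e-05) and 12.8-fold lower than in WT Lgr6 cells (-3.68 ± 0.44, adjusted p = 3.24e-06). Relative to the median of all genes these differences were -4.43 and -4.17. That offset depends on genes with low counts, since the medians were 0.06 and 0.04 among genes of at least 5 CPM on average. Without WT Lgr6 replicate 3 the log2 fold change over WT Lgr6 moved to -2.86 and stayed past the threshold.

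H2-K1 and H2-D1 are the classical, highly polymorphic heavy chains of this strain that present to cytotoxic T cells. H2-K1 (ENSMUSG00000061232.15; chromosome 17, 33996017 to 34000347, minus strand) had 371, 400.3 and 277 CPM in Pelo -/- Lgr5 libraries, against 218, 344 and 105 CPM in WT Lgr5 libraries. It had 2075, 1814 and 1595 CPM in Pelo -/- Lrig1 libraries and 1952 and 1650.0 CPM in WT Lrig1 libraries. The Pelo -/- Lgr6 libraries held 2015, 1781 and 1694 CPM and WT Lgr6 libraries 1694, 1635 and 1990.0 CPM. The Lrig1 and Lgr6 libraries lay close together and none of the Lgr5 libraries reached them. H2-K1 was 8.10-fold lower in WT Lgr5 than in WT Lrig1 cells (-3.02 ± 0.41, adjusted p = 1.52e-05) and 7.98-fold lower than in WT Lgr6 cells (-2.997 ± 0.387, adjusted p = 8.18e-06).

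H2-D1 (ENSMUSG00000073411.11; chromosome 17, 35262730 to 35267499, plus strand) had 276, 225 and 233 CPM in Pelo -/- Lgr5 libraries, against 151, 177 and 86.9 CPM in WT Lgr5 libraries. It had 1609, 1315 and 1704 CPM in Pelo -/- Lrig1 libraries and 1391 and 1341 CPM in WT Lrig1 libraries. Among Lgr6 libraries, those labelled Pelo -/- held 1416, 2324 and 2076 CPM and WT Lgr6 libraries 1993, 1864 and 1340.0 CPM. All 3 Pelo -/- Lgr5 libraries were above all 3 WT Lgr5 libraries, and all 6 were far below the rest. The WT Lgr5 level was 9.88-fold lower than in WT Lrig1 cells (-3.30 ± 0.38, adjusted p = 3.01e-06) and 12.5-fold lower than in WT Lgr6 cells (-3.65 ± 0.37, adjusted p = 5.04e-07).

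The non-classical Qa heavy chains H2-Q4, H2-Q6 and H2-Q7 are encoded in the Q region, and H2-Q7 is a source of the membrane-anchored Qa-2 antigen. H2-Q6 (ENSMUSG00000073409.12; chromosome 17, 35424850 to 35430055, plus strand) had 8.57, 6.31 and 1.66 CPM in Pelo -/- Lgr5 libraries, against 3.25, 6.92 and 3.61 CPM in WT Lgr5 libraries. It had 168, 143 and 97.0 CPM in Pelo -/- Lrig1 libraries and 179 and 231 CPM in WT Lrig1 libraries. In Pelo -/- Lgr6 libraries there were 280.2, 287 and 134 CPM and in WT Lgr6 libraries 285, 199 and 323 CPM. Every Lgr5 library was far below every Lrig1 and Lgr6 library. H2-Q6 was 44.5-fold lower in WT Lgr5 than in WT Lrig1 cells (-5.48 ± 0.56, adjusted p = 7.26e-07) and 58.4-fold lower than in WT Lgr6 cells (-5.87 ± 0.56, adjusted p = 2.18e-07).

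H2-Q7 (ENSMUSG00000060550.15; chromosome 17, 35439155 to 35443773, plus strand) had 3.70, 16.95 and 15.1 CPM in Pelo -/- Lgr5 libraries, against 6.76, 6.86 and 11.2 CPM in WT Lgr5 libraries. It had 289, 283 and 197 CPM in Pelo -/- Lrig1 libraries and 272 and 276 CPM in WT Lrig1 libraries. The Pelo -/- Lgr6 libraries held 308, 393 and 198 CPM and WT Lgr6 libraries 317, 259 and 455 CPM. The Pelo -/- Lgr5 libraries spanned the WT Lgr5 libraries and neither group came near the other populations. H2-Q7 was 33.1-fold lower in WT Lgr5 than in WT Lrig1 cells (-5.05 ± 0.52, adjusted p = 7.26e-07) and 41.5-fold lower than in WT Lgr6 cells (-5.38 ± 0.51, adjusted p = 2.18e-07). H2-Q4 (ENSMUSG00000035929.11; chromosome 17, 35379617 to 35385290, plus strand) averaged 4.10 ± 0.855 CPM in WT Lgr5 cells, 27.3 ± 9.12 CPM in WT Lrig1 cells and 34.05 ± 1.81 CPM in WT Lgr6 cells (SD), and its fall was smaller (-2.74 ± 0.52 over WT Lrig1, adjusted p = 0.000644, and -3.06 ± 0.49 over WT Lgr6, adjusted p = 0.000105).

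H2-T22 (ENSMUSG00000056116.18; chromosome 17, 36037128 to 36042747, minus strand) encodes a non-classical heavy chain that some gamma-delta T cell receptors bind directly. It had 20.8, 8.44 and 16.6 CPM in Pelo -/- Lgr5 libraries, against 6.83, 5.38 and 5.85 CPM in WT Lgr5 libraries. It had 206, 192 and 101 CPM in Pelo -/- Lrig1 libraries and 239 and 221 CPM in WT Lrig1 libraries. Among Lgr6 libraries, those labelled Pelo -/- held 90.2, 171 and 74.9 CPM and WT Lgr6 libraries 99.0, 135 and 289 CPM. Every Pelo -/- Lgr5 library was above every WT Lgr5 library, and both groups were below the rest. H2-T22 was 38.1-fold lower in WT Lgr5 than in WT Lrig1 cells (-5.25 ± 0.53, adjusted p = 5.51e-07) and 28.9-fold lower than in WT Lgr6 cells (-4.85 ± 0.51, adjusted p = 5.89e-07).

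H2-T23 (ENSMUSG00000067212.8; chromosome 17, 36029773 to 36032855, minus strand) encodes Qa-1, which shows leader peptides of other class I chains to the inhibitory NKG2A receptor of natural killer cells. It had 89.5, 89.4 and 47.1 CPM in Pelo -/- Lgr5 libraries, against 36.4, 40.6 and 21.5 CPM in WT Lgr5 libraries. It had 215, 206 and 127 CPM in Pelo -/- Lrig1 libraries and 255 and 210.1 CPM in WT Lrig1 libraries. In Pelo -/- Lgr6 libraries there were 69.5, 196 and 104 CPM and in WT Lgr6 libraries 100.4, 168 and 230.1 CPM. In Pelo -/- cells the Lgr5 and Lgr6 libraries overlapped, while in WT cells they did not. H2-T23 was 7.08-fold lower in WT Lgr5 than in WT Lrig1 cells (-2.82 ± 0.47, adjusted p = 0.000162) and 5.06-fold lower than in WT Lgr6 cells (-2.34 ± 0.43, adjusted p = 0.000449). Without WT Lgr5 replicates 1 and 3 these calls were lost, at -2.46 (adjusted p = 0.0517) and -1.89 (adjusted p = 0.117).

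Heavy chain transcripts did not fall by the same factor, as the plot of their shares shows. H2-Q6 and H2-Q7 together made up 1.57%, 3.09% and 2.81% of the heavy chain CPM in Pelo -/- Lgr5 libraries and 2.35%, 2.35% and 6.22% in WT Lgr5 libraries. In the 11 Lrig1 and Lgr6 libraries their share was 7.63% to 16.7%, with a median of 10.7%. The share was smaller in every Lgr5 library than in every other library, and highest among Lgr5 libraries in WT Lgr5 replicate 3. The share of H2-T23 went the other way, at 6.92% to 11.9% in Lgr5 libraries and 1.65% to 5.90% in the others. The balance between heavy chains and B2m, taken per kilobase of exon, was not apart in this way, at 0.302 to 0.591 in Lgr5 libraries and 0.187 to 0.603 in the others.

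**Figure D2:**
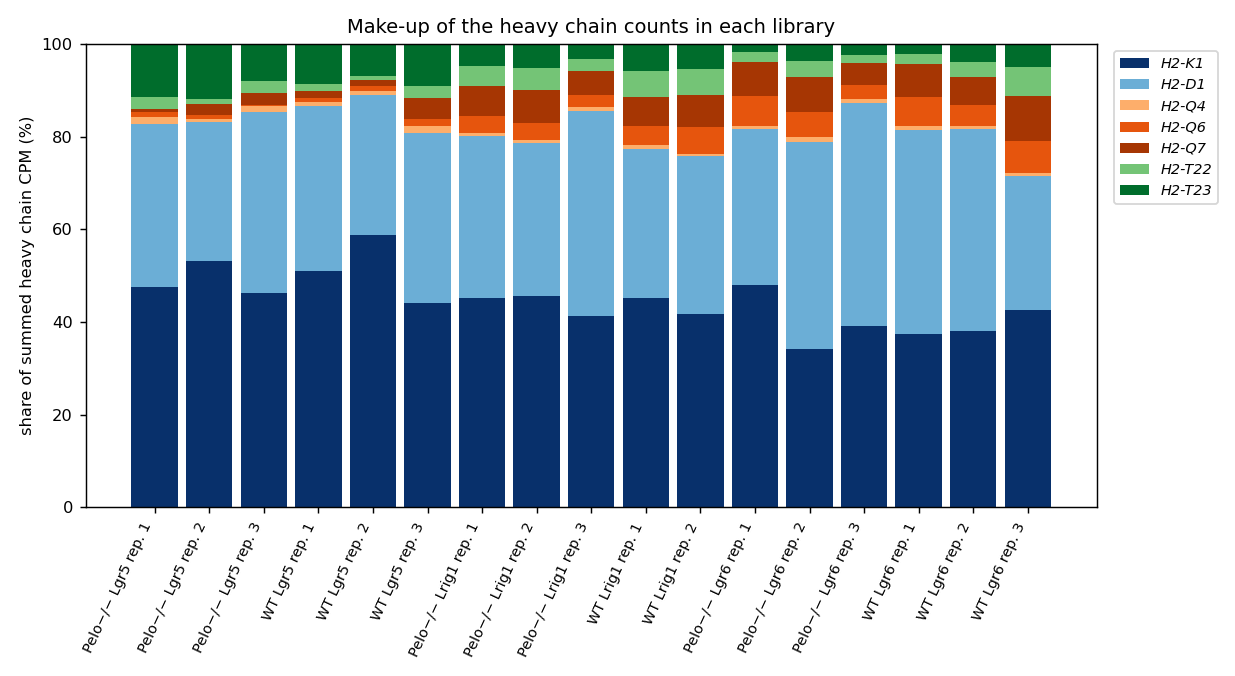
Share of the summed heavy chain CPM (percent, bars from 0 to 100) taken by each of the 7 heavy chain members in each library. The H2-Q6 and H2-Q7 segments together cover 1.57% to 6.22% in Lgr5 libraries, against 7.63% to 16.7% in the rest.

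Reads of the heavy chain genes can be shared between relatives, and the treatment of multi-mapping reads and of strand is not given in the labels or processing notes used. Of the 50-base stretches in the annotated transcripts, all were unique to the gene for B2m and 99.7% for Nlrc5, against 65.03% for H2-Q6, 63.6% for H2-Q4 and 46.5% for H2-T22. H2-T22 shared 31.2% of its stretches with H2-T10, and H2-Q6 shared 13.9% with H2-Q7, so the counts of these genes are uncertain. On the opposite strand, an annotated gene overlapped 29.4% of the exonic bases of H2-T22, 19.1% of those of H2-Q4 and 14.1% of those of Tap2.

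Tap2 (ENSMUSG00000024339.12; chromosome 17, 34203527 to 34216321, plus strand), the partner of TAP1 in the peptide transporter, was the member with the fewest counts, 18 to 343 per library. It had 3.99, 3.33 and 3.87 CPM in Pelo -/- Lgr5 libraries, against 7.504, 3.72 and 0.984 CPM in WT Lgr5 libraries. Pelo -/- Lrig1 libraries had 7.69, 7.72 and 4.91 CPM and WT Lrig1 libraries 6.71 and 3.24 CPM. The Pelo -/- Lgr6 libraries held 8.66, 7.56 and 2.44 CPM and WT Lgr6 libraries 6.62, 17.3 and 9.52 CPM. The populations overlapped in WT cells. No difference passed the threshold for WT Lgr5 over WT Lrig1 (-0.29 ± 0.85, adjusted p = 0.811) or over WT Lgr6 (-1.45 ± 0.78, adjusted p = 0.261). The value over WT Lrig1 turned positive with library totals alone (0.56), with genes of at least 5 CPM on average (0.47), and without WT Lgr5 replicate 3 or WT Lrig1 replicate 1 (0.17 each).

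Nlrc5 (ENSMUSG00000074151.12; chromosome 8, 94434356 to 94527272, plus strand), the transactivator recruited to class I promoters, was low in all Lgr5 libraries but varied widely among them. It had 3.29, 17.9 and 4.35 CPM in Pelo -/- Lgr5 libraries, against 3.99, 30.0 and 5.09 CPM in WT Lgr5 libraries. Pelo -/- Lrig1 libraries had 62.0, 56.0 and 65.02 CPM and WT Lrig1 libraries 62.7 and 70.7 CPM. Among Lgr6 libraries, those labelled Pelo -/- held 46.6, 68.3 and 70.2 CPM and WT Lgr6 libraries 59.5, 39.3 and 103 CPM. Replicate 2 of each Lgr5 group held several times more Nlrc5 than the other libraries of its group, though still less than any Lrig1 or Lgr6 library. Nlrc5 was 5.12-fold lower in WT Lgr5 than in WT Lrig1 cells (-2.36 ± 0.71, adjusted p = 0.0321) and 5.16-fold lower than in WT Lgr6 cells (-2.37 ± 0.67, adjusted p = 0.0194). Without WT Lgr5 replicate 2 the values were -3.92 and -3.85, and without replicates 1 and 3 together -1.11 and -1.04. Leaving out replicate 1 or replicate 3 of WT Lgr5 ended the call over WT Lrig1, at -1.92 (adjusted p = 0.0969) and -1.93 (adjusted p = 0.127), and so did leaving out either WT Lrig1 library (adjusted p = 0.0997 and 0.266). The same 2 WT Lgr5 libraries decided the call over WT Lgr6 (adjusted p = 0.0783 and 0.124 without them in turn), as did WT Lgr6 replicate 3 (-1.66 without it, adjusted p = 0.207). In the Pelo -/- comparisons Nlrc5 passed, at -2.84 ± 0.68 over Pelo -/- Lrig1 (adjusted p = 0.0102) and -2.86 ± 0.68 over Pelo -/- Lgr6 (adjusted p = 0.00769), and the first was lost without Pelo -/- Lgr5 replicate 3 (adjusted p = 0.0564) and moved to -3.99 without Pelo -/- Lgr5 replicate 2.

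Per kilobase of exon, the order of mean levels in WT Lgr5 cells was B2m (409 ± 127 CPM per kb, SD, n = 3), H2-K1 (75.6 ± 40.8), H2-D1 (53.6 ± 18.0), H2-T23 (11.4 ± 3.46), H2-Q6 (2.20 ± 0.972), H2-Q7 (1.94 ± 0.588), H2-T22 (1.76 ± 0.216), H2-Q4 (1.58 ± 0.329), Nlrc5 (1.53 ± 1.73) and Tap2 (1.08 ± 0.866). The neighbours H2-K1 and H2-D1 did not differ beyond their spread, nor did neighbours among the 6 genes after H2-T23. In WT Lrig1 cells the order was B2m (4430.0 ± 652, n = 2), H2-K1 (613 ± 72.7), H2-D1 (529.6 ± 13.7), H2-Q6 (98.2 ± 17.4), H2-T23 (80.5 ± 11.0), H2-T22 (67.3 ± 3.66), H2-Q7 (64.2 ± 0.755), H2-Q4 (10.5 ± 3.51), Nlrc5 (7.85 ± 0.667) and Tap2 (1.32 ± 0.649). In WT Lrig1 cells neighbours among H2-Q6, H2-T23, H2-T22 and H2-Q7 did not differ beyond their spread, nor did H2-Q4 and Nlrc5. Across the 17 libraries the pairwise correlation of log2 CPM between members other than Tap2 was 0.753 to 0.978, a description in which all pairs share the libraries and the difference between Lgr5 and the other populations.

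The low class I level of Lgr5 cells was also seen in Pelo -/- animals. Of the 10 members, 8 fell in Pelo -/- Lgr5 cells relative to Pelo -/- Lrig1 cells, where 5.77% of all genes fell and 2.08% rose, and 8 relative to Pelo -/- Lgr6 cells, where 7.23% fell and 2.72% rose. The libraries did not overlap for 10 members over Pelo -/- Lrig1, against 14.3% of all genes, and for 8 over Pelo -/- Lgr6, against 15.5%. H2-T23 and Tap2 did not pass in either comparison. The median of the members was -2.58 over Pelo -/- Lrig1 and -2.62 over Pelo -/- Lgr6, against 0.64 and 0.61 for all genes. With only genes of at least 5 CPM on average, it was -2.10 and -2.04, against 0.04 and 0.05 for all genes. B2m was 5.67-fold lower than in Pelo -/- Lrig1 cells (-2.50 ± 0.42, adjusted p = 0.000306) and 4.38-fold lower than in Pelo -/- Lgr6 cells (-2.13 ± 0.41, adjusted p = 0.00104). H2-Q6 was 24.7-fold below Pelo -/- Lrig1 (-4.63 ± 0.53, adjusted p = 2.71e-06) and 42.4-fold below Pelo -/- Lgr6 (-5.40 ± 0.55, adjusted p = 4.19e-07). H2-T23 had -1.28 ± 0.42 over Pelo -/- Lrig1 (adjusted p = 0.0611) and -0.71 ± 0.41 over Pelo -/- Lgr6 (adjusted p = 0.290). The first of these passed with limma-voom (adjusted p = 0.0396) and with no filter on low counts (adjusted p = 0.0424). H2-Q4 over Pelo -/- Lrig1 (-1.97 ± 0.47, adjusted p = 0.00860) did not pass with library totals alone (adjusted p = 0.0620) or without Pelo -/- Lgr5 replicate 2 (adjusted p = 0.0531).

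**Figure D3:**
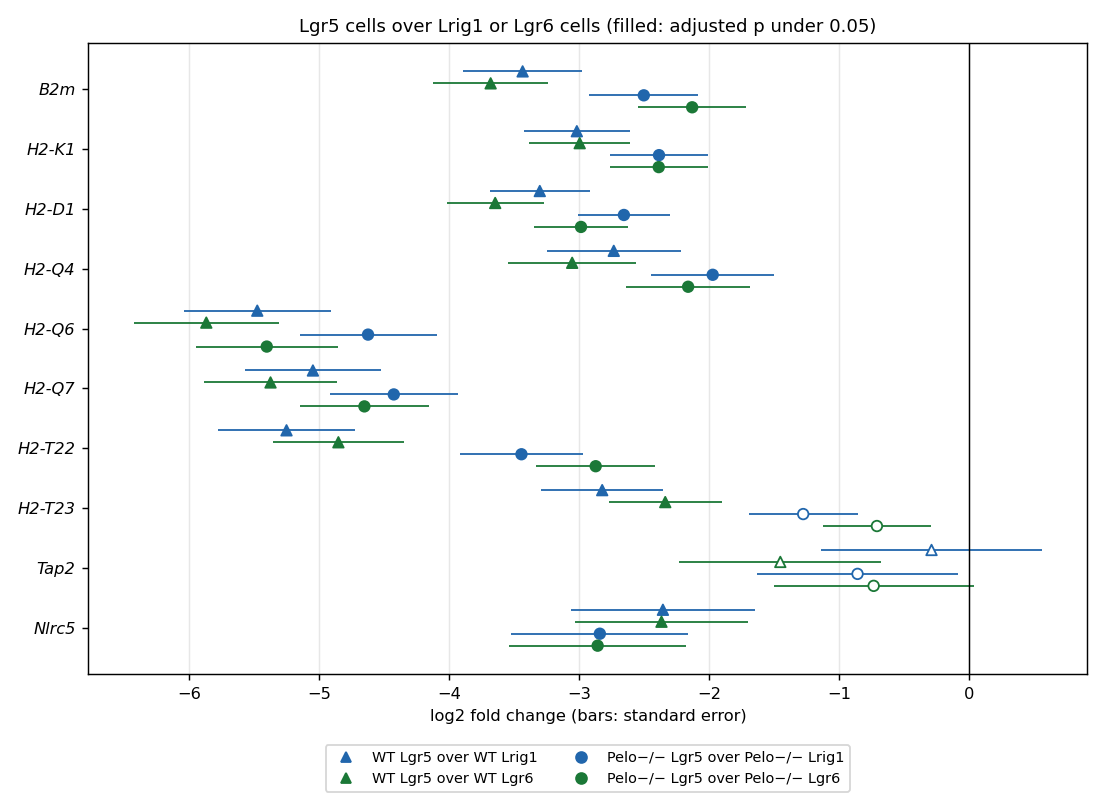
Log2 fold change of each member in Lgr5 cells over Lrig1 cells (blue) or Lgr6 cells (green), in Pelo -/- animals (circles) and WT animals (triangles), with bars of 1 SE and filled symbols for adjusted p under 0.05. All points lie below 0, from -5.87 for H2-Q6 to -0.29 for Tap2, and the open symbols are those of Tap2 and of H2-T23 in Pelo -/- cells.

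No class I member was called between Lrig1 and Lgr6 cells. For WT Lrig1 over WT Lgr6, edgeR called none of the 10 members (0 at an unadjusted p under 0.05), and it called 0.0% of all genes. For Pelo -/- Lrig1 over Pelo -/- Lgr6 the count was again 0, with 0 at an unadjusted p under 0.05 and 0.0% of all genes called. DESeq2 and limma-voom also called 0 members in both, where DESeq2 called 0.274% and 0.286% of the genes it gave an adjusted p. B2m differed by -0.25 ± 0.45 (WT Lrig1 over WT Lgr6) and 0.37 ± 0.40 (Pelo -/- Lrig1 over Pelo -/- Lgr6), H2-T22 by 0.40 ± 0.47 and 0.57 ± 0.43, and H2-T23 by 0.48 ± 0.46 and 0.57 ± 0.41. Every Pelo -/- Lrig1 library was above every Pelo -/- Lgr6 library for B2m, an order seen for 3.97% of all genes. The B2m value in WT cells turned to 0.56 without WT Lgr6 replicate 3.

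No class I member was called between libraries labelled Pelo -/- and WT. Pelo encodes a factor that rescues stalled ribosomes. In Lgr5 cells, 8 of the 10 members had higher values in libraries labelled Pelo -/- than in WT, with a median of 0.72 against -0.14 for all genes, but edgeR called none (smallest adjusted p = 0.541) and 0.0197% of all genes. At an unadjusted p under 0.05 there were 4 members: H2-T22 (1.35 ± 0.44, adjusted p = 0.541), H2-T23 (1.20 ± 0.42, adjusted p = 0.589), H2-D1 (0.82 ± 0.34, adjusted p = 0.691) and H2-Q4 (1.00 ± 0.47, adjusted p = 0.782). These 4 were also the members for which every Pelo -/- Lgr5 library lay above every WT Lgr5 library, an order seen for 3.80% of all genes. H2-Q4 had 12.6, 5.11 and 6.87 CPM in the Pelo -/- Lgr5 libraries, against 4.12, 4.94 and 3.23 CPM in the WT Lgr5 libraries. B2m had 0.79 ± 0.40 (adjusted p = 0.828) and Nlrc5 -0.62 ± 0.64 (adjusted p = 0.998), and the Nlrc5 value was 0.82 without WT Lgr5 replicate 2. DESeq2 and limma-voom called 0 members as well. DESeq2 called 0.883% of the genes it gave an adjusted p, and limma-voom 0.0% of all genes. Satellite-like counts, 1.72% to 9.42% in Pelo -/- Lgr5 libraries and 4.08% to 25.4% in WT Lgr5 libraries, moved with this contrast, and their part in these values was not tested. Without WT Lgr5 replicates 1 and 3 the median of the members was 0.37 and that of all genes 0.38, and the value for H2-K1 changed sign.

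In Lgr6 and Lrig1 cells the medians were -0.20 and -0.11 for Pelo -/- over WT, against -0.27 and -0.02 for all genes. edgeR called 0 members in each, 0 had an unadjusted p under 0.05 and 0.0% of all genes were called. B2m was lower in every Pelo -/- Lgr6 library than in every WT Lgr6 library, as were 5.74% of all genes, and H2-Q6 and H2-T22 were lower in every Pelo -/- Lrig1 library than in every WT Lrig1 library, as were 10.7% of all genes. DESeq2 and limma-voom called 0 members too, with 0.0771% and 0.145% of genes called by DESeq2. B2m had -0.77 ± 0.40 in Lgr6 cells, a value of 0.03 without WT Lgr6 replicate 3, and -0.15 ± 0.44 in Lrig1 cells. H2-T22 had -0.63 ± 0.43 and -0.46 ± 0.47.

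The difference between populations in the Pelo contrast was tested directly. No member passed for Lgr5 minus Lrig1 (smallest adjusted p = 0.894, 2 members at an unadjusted p under 0.05), Lgr5 minus Lgr6 (0.822, 3 members) or Lrig1 minus Lgr6 (1.00, 0 members), and edgeR called 0.0% of all genes in each. DESeq2 and limma-voom called 0 members, with 0.281%, 0.293% and 0.221% of genes called by DESeq2. H2-T22 had the largest values among the members, 1.81 ± 0.64 for Lgr5 minus Lrig1 and 1.98 ± 0.62 for Lgr5 minus Lgr6. H2-T23 had 1.55 ± 0.62 and 1.63 ± 0.59, and B2m 0.93 ± 0.59 and 1.55 ± 0.56. These contrasts share the Lgr5 libraries with the comparisons above.

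**Figure D4:**
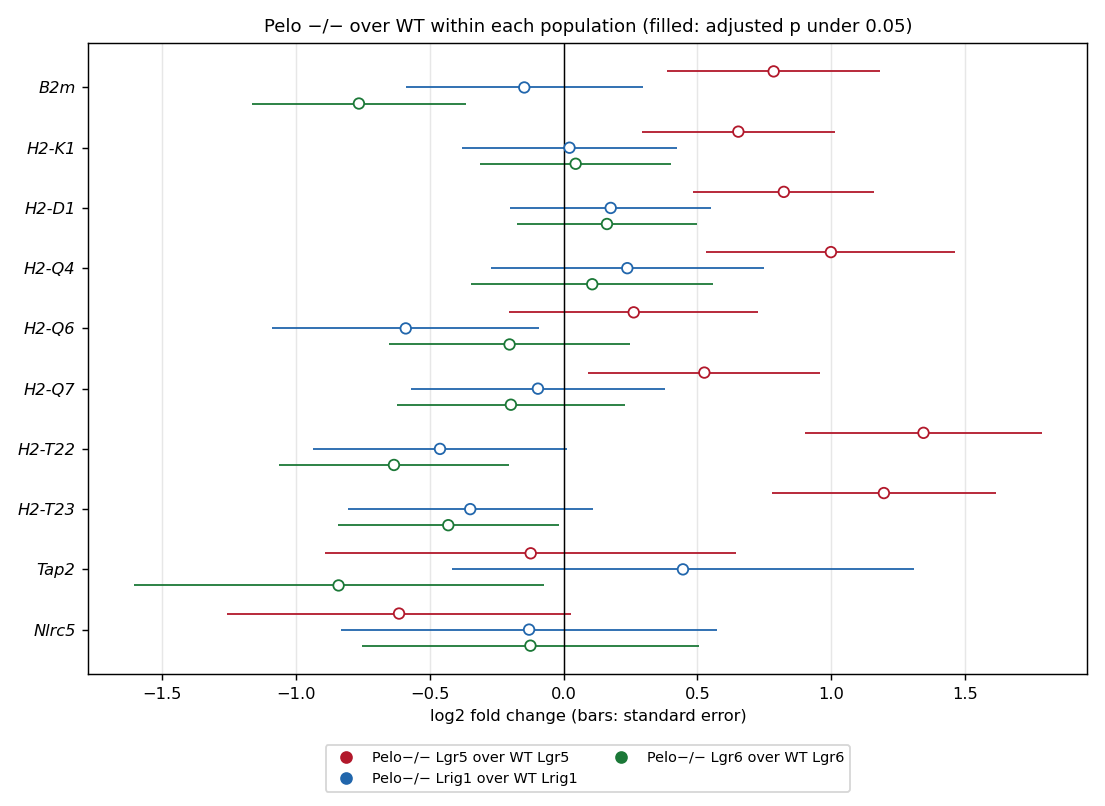
Log2 fold change of each member in Pelo -/- over WT cells, within the Lgr5 (red), Lrig1 (blue) and Lgr6 (green) populations, with bars of 1 SE. All symbols are open, since no adjusted p was under 0.05, and the highest value is 1.35 for H2-T22 in Lgr5 cells.

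Among other genes of the class I pathway, taken from lists, most proteasome genes and 9 of 16 loading genes fell in WT Lgr5 cells, while the other lists had fewer calls, as the plot of pathway lists shows. Over all genes, 9.09% fell and 1.99% rose relative to WT Lrig1, and 10.6% fell relative to WT Lgr6. Of 18 tested class I heavy chain and class I-like genes outside the members, 4 fell and 1 rose relative to WT Lrig1, and 5 fell relative to WT Lgr6. The list median was 0.03 over WT Lrig1, with 9 values higher and 9 lower, and -0.94 over WT Lgr6. H2-Q5 averaged 0.461 ± 0.174 CPM in WT Lgr5 cells and 45.8 ± 5.07 CPM in WT Lrig1 cells (-6.60 ± 0.69, adjusted p = 7.50e-07), with 56.6 ± 14.9 CPM in WT Lgr6 cells. H2-T10, the close relative of H2-T22, fell over WT Lrig1 (-4.62 ± 0.54), as did H2-M3 (-4.97 ± 0.86), which presents formylated peptides, and H2-M2 (-5.62 ± 1.04). The gene called higher was Azgp1, a secreted class I-like protein, which had a count of 0 in both WT Lrig1 libraries and 1 to 33 counts in WT Lgr5 libraries (adjusted p = 0.0493).

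Of 16 tested peptide loading and assembly genes, 9 fell and 0 rose relative to WT Lrig1, and the counts were the same relative to WT Lgr6, with medians of -1.48 and -1.46. Tap1, the other transporter subunit, averaged 10.7 ± 6.11 CPM in WT Lgr5 cells, 119 ± 7.87 CPM in WT Lrig1 cells and 116 ± 9.42 CPM in WT Lgr6 cells. Its log2 fold changes were -3.47 ± 0.47 (adjusted p = 1.72e-05) and -3.43 ± 0.45 (adjusted p = 1.01e-05), and Tap1 also fell in Pelo -/- Lgr5 cells (-2.90 ± 0.44 over Pelo -/- Lrig1, adjusted p = 0.000105). Tapbp, the tapasin that bridges the transporter and the heavy chain, fell by 2.31 ± 0.43 and 2.50 ± 0.41. Erap1, which trims peptides in the endoplasmic reticulum, had -1.44 ± 0.49 (adjusted p = 0.0593) and -1.22 ± 0.45 (adjusted p = 0.0838).

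The interferon-inducible immunoproteasome and its activator had 7 of 8 genes lower relative to WT Lrig1 and 8 of 8 relative to WT Lgr6, with 0 higher. Its catalytic subunits Psmb8 (-3.99 ± 0.78), Psmb9 (-3.87 ± 0.96) and Psmb10 (-2.77 ± 0.79) fell over WT Lrig1. Psmb8 averaged 4.77 ± 6.18 CPM in WT Lgr5 cells, against 75.4 ± 19.5 CPM in WT Lrig1 cells. The chaperone Pomp (-3.23 ± 0.41) and the activator subunit Psme2 (-3.57 ± 0.56) fell, as did Psme2b (-3.69 ± 0.52), a near copy of Psme2 that may share its reads. Core subunits of the constitutive proteasome were lower too, 12 of 14 relative to WT Lrig1 (median -2.30) and 14 of 14 relative to WT Lgr6 (median -2.06). Psmb6 (-3.67 ± 0.49) and Psmb7 (-3.68 ± 0.63) fell over WT Lrig1, while Psmb5, the constitutive counterpart of Psmb8, had -0.67 ± 0.47 (adjusted p = 0.318). Proteasome genes of both kinds thus fell in Lgr5 cells, and no difference between the kinds was tested.

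Among 19 regulators of class I transcription, 2 fell relative to WT Lrig1 and 4 relative to WT Lgr6, and none rose, and the first of these counts is near the share over all genes (9.09%). Irf1, an interferon-induced activator of class I genes, averaged 3.70 ± 2.77 CPM in WT Lgr5 cells, 31.0 ± 7.33 CPM in WT Lrig1 cells and 31.5 ± 1.63 CPM in WT Lgr6 cells. Its log2 fold changes were -3.07 ± 0.75 (adjusted p = 0.00693) and -3.09 ± 0.71 (adjusted p = 0.00369). Nfyc, a subunit of the factor that binds CCAAT, fell by 1.55 ± 0.48 and 1.34 ± 0.44. Of 7 interferon receptors and kinases, 2 fell relative to WT Lrig1 and 3 relative to WT Lgr6. Ifngr1, the ligand-binding chain of the interferon gamma receptor, averaged 6.66 ± 3.66 CPM in WT Lgr5 cells, 309 ± 109 CPM in WT Lrig1 cells and 296 ± 117 CPM in WT Lgr6 cells (-5.54 ± 0.50 and -5.47 ± 0.49, adjusted p = 1.53e-07 and 1.04e-07). Ifngr1 fell by 5.01 ± 0.48 in Pelo -/- Lgr5 cells over Pelo -/- Lrig1.

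Of 30 interferon-induced genes, 4 fell relative to each of WT Lrig1 and WT Lgr6 and none rose, with medians of -0.52 and -1.06. These counts are close to the shares over all genes, 9.09% and 10.6%. Ifi27, Irgm1 and Usp18 were among the 4 in both. Of 11 tested ligands of natural killer and T cell checkpoints, 1 rose and none fell: Cd200, a ligand that restrains myeloid cells, averaged 153 ± 45.7 CPM in WT Lgr5 cells, 52.0 ± 31.2 CPM in WT Lrig1 cells and 51.6 ± 1.18 CPM in WT Lgr6 cells (1.56 ± 0.46, adjusted p = 0.0252, and 1.57 ± 0.40, adjusted p = 0.00769). Of all genes tested, 1.99% rose relative to WT Lrig1 and 1.57% relative to WT Lgr6. Of 11 class II presentation genes, 4 fell relative to WT Lrig1 and 5 relative to WT Lgr6. Cd74, the invariant chain of class II, averaged 0.805 ± 0.264 CPM in WT Lgr5 cells, 79.0 ± 61.6 CPM in WT Lrig1 cells and 192 ± 120.0 CPM in WT Lgr6 cells.

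**Figure D5:**
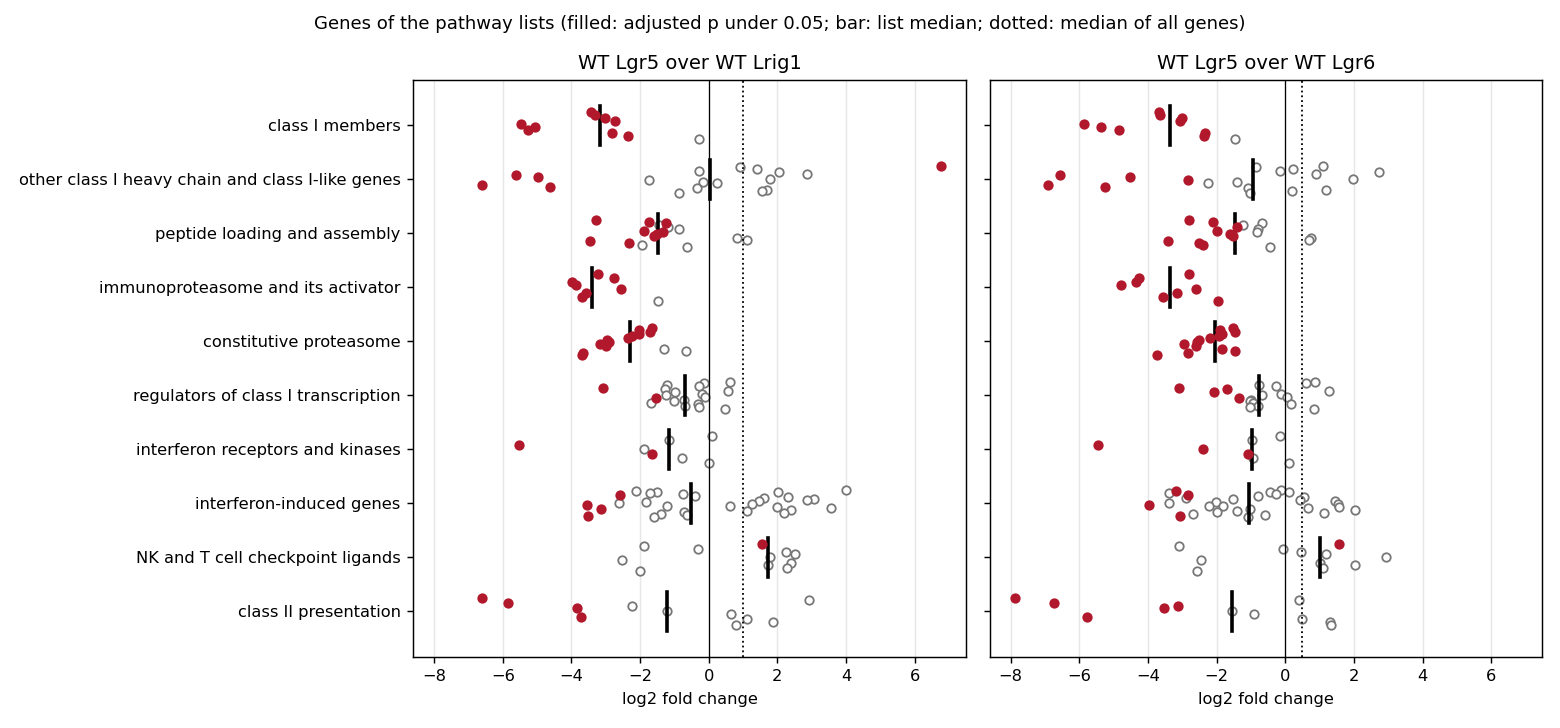
Log2 fold changes of the tested genes of 10 lists, the members among them, for WT Lgr5 over WT Lrig1 (left) and WT Lgr5 over WT Lgr6 (right), with filled red points for adjusted p under 0.05, a black bar at each list's median and a dotted line at the median of all genes (0.99 and 0.49). The medians of the members (-3.16 and -3.35) and of the immunoproteasome list (-3.40 and -3.36) lie lowest, and the single filled point to the right in the checkpoint row is Cd200.

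In the WT comparisons the keratinocyte markers, listed as interfollicular, fell along with class I, and most other marker lists had few calls. All 8 of these keratinocyte markers (Krt1, Krt10, Krt14, Krt5, Ly6a, Ly6d, Krtdap and Sbsn) fell in WT Lgr5 cells relative to both WT groups. Their summed level was 2009 to 4280.0 CPM in Pelo -/- Lgr5 libraries and 969 to 2370.0 CPM in WT Lgr5 libraries, against 18480.0 to 33660.0 CPM over the other groups. Of 13 tested T cell markers 1 fell, Thy1, while 9.09% of all genes fell over WT Lrig1 and 10.6% over WT Lgr6. Over WT Lrig1, 10 of the 13 had higher values and 3 lower, and over WT Lgr6 3 were higher and 10 lower. The list summed to 15.6 to 83.5 CPM in Pelo -/- Lgr5 libraries and 24.9 to 30.2 CPM in WT Lgr5 libraries. It summed to 53.1 to 144.7 CPM over the other groups. None of 14 Langerhans cell and macrophage markers was called in these WT comparisons. Over WT Lrig1 11 had higher values and 3 lower, and over WT Lgr6 7 were higher and 7 lower. Their sums were 12.8 to 30.7 CPM in WT Lgr5, 13.6 to 23.4 CPM in WT Lrig1 and 20.8 to 43.2 CPM in WT Lgr6 libraries. The part of these cells in the class I difference was not tested. Group means were at most 2.96 CPM for Cd207, which marks Langerhans cells, 4.45 CPM for Ptprc and 1.84 CPM for Cd3e. Between 0 and 5 of the 14 Langerhans and macrophage markers and between 0 and 7 of the 14 T cell markers were at a count of 0 in a library.

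Melanocyte markers summed to 148 to 334 CPM in Pelo -/- Lgr5 libraries and 64.1 to 134 CPM in WT Lgr5 libraries, against 12.7 to 39.5 CPM over the other groups, with Mitf the 1 of 8 that rose in WT. Fibroblast markers summed to 38.6 to 68.0 CPM in Pelo -/- Lgr5 libraries and 36.4 to 57.4 CPM in WT Lgr5 libraries, against 1.49 to 21.8 CPM over the other groups, with Col1a2 the 1 of 8 that rose. None of the 8 endothelial markers was called in these WT comparisons. Over WT Lrig1 all 8 had higher values (median 2.05, against 0.99 for all genes). Over WT Lgr6 7 were higher and 1 lower (median 1.27, against 0.49). Of 10 bulge and germ markers, 4 rose over WT Lrig1, against 1.99% of all genes, and 6 over WT Lgr6, against 1.57%, among them the transcription factor Lhx2 (4.27 ± 0.69 and 4.15 ± 0.58). In each comparison 2 of the 10 had lower values, and the summed levels overlapped, at 7616 to 9119 CPM in WT Lgr5, 7201 to 8758 CPM in WT Lrig1 and 6554 to 8988 CPM in WT Lgr6 libraries.

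Searched over 7917 genes outside the lists, the patterns most like the mean log2 level of the members over the 17 libraries were those of Slc31a2 (Pearson r = 0.986), Rnf10 (0.984), Aldoa (0.984), Ifitm3 (0.983), Clca3a2 (0.983) and Myl12b (0.983). For B2m alone they were Plp2 (0.982), Ly6e (0.980), Echs1 (0.978), Ifitm3 (0.976), Cdc123 (0.976) and Sdhc (0.975). Ifitm3, an interferon-induced membrane protein and the gene on both lists, averaged 19.6 CPM in WT Lgr5 cells, 598 CPM in WT Lrig1 cells and 788 CPM in WT Lgr6 cells. The libraries fall apart into Lgr5 and the other populations, so these coefficients describe that difference across libraries that share it, and they carry no test.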

How the data were processed

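Sorted GFP+ epidermal cells were sequenced with a full-length protocol after Picelli and colleagues, per the labels' protocols. The authors deposited whole-number counts per Ensembl gene for 17 libraries. STAR, edgeR, GRCm38 and mm10 are named in the submitters' processing notes, with no versions or settings. Gene IDs were matched to GENCODE M21 for symbols, coordinates and exon lengths (48144 of 48820 without the version suffix). Depth was 9647507 to 28098841 counts per library. No 2 libraries of the same group agreed within sampling noise.

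Counts were fitted with edgeR 4.0.16 (R 4.3.3; TMM scaling, robust quasi-likelihood test, 1 coefficient per group, all 17 libraries) after a filter on low counts (a minimum count of 10 and a total of 15), which kept 30405 genes. Adjusted p is Benjamini-Hochberg over those genes within a comparison, with calls under 0.05, and ± after a log2 fold change is its standard error. The fit was tested on simulated data, with less spread than the common dispersion of 0.537 estimated from these libraries. Levels are TMM-scaled CPM, and levels of different genes are compared per kilobase of exon. Alternatives were DESeq2 1.42.0, limma-voom (limma 3.58.1), other scalings and filters, fewer groups in the fit, a replicate term and each library left out.

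The members and lists were chosen with earlier results of these data known. The rule names all members in every comparison. In the text, test values of all members are given only for WT Lgr5 over WT Lrig1 and over WT Lgr6. In the other comparisons they are given for some members, and the rest are covered by counts and medians. From other lists, up to 4 called genes with the smallest p and a fixed set (Tap1, Tapbp, Erap1, Psmb8, Psmb9, Psmb10, Psmb5, Irf1; another gene of the set is not reported here) are named, with Cd207, Ptprc, Cd3e and the marker genes that were called added after their values were seen. Likeness was searched among genes outside the lists whose log2 CPM averaged 3 or more, leaving out predicted and non-coding identifiers.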

Additional observations from a re-analysis of the deposited data

How the results depend on the processing

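The number of class I members called stayed within 1.5 times of the reported one in all 198 alternatives run: 6 to 9 for WT Lgr5 over WT Lrig1, 7 to 9 over WT Lgr6, 7 to 9 for Pelo -/- Lgr5 over Pelo -/- Lrig1, 8 over Pelo -/- Lgr6 and 0 in the other comparisons. Of 1044 values for single members, 1003 kept their direction and side of the threshold. Replicate numbers did not pair the libraries, since deviations of same-numbered libraries correlated between -0.24 and 0.24; with the replicate block the counts were 9, 9, 8 and 8 in the Lgr5 comparisons.

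The call for Nlrc5 in WT Lgr5 over WT Lrig1 was also lost with RLE size factors (adjusted p = 0.0585), library totals alone (0.125), a minimum mean CPM of 5 (0.0641) and only the groups compared (0.0653), and over WT Lgr6 with RLE (0.0504), library totals (0.124) and only the groups compared (0.0634). Without WT Lgr5 replicates 1 and 3, a choice made after seeing the data like the scaling without satellite-like and mitochondrial genes, Nlrc5 had -1.11 and -1.04. Values that changed sign, none of them called, were Tap2 in WT Lgr5 over WT Lrig1 (0.56 with library totals, 0.47 with the CPM minimum, -1.07 to 0.17 over libraries left out) and B2m in WT Lrig1 over WT Lgr6 (-0.49 to 0.56). For Pelo -/- over WT in Lgr5 cells they were H2-Q6 (-0.08 with library totals, -0.038 with the CPM minimum, -0.38 without WT Lgr5 replicates 1 and 3, -0.22 to 0.69 over libraries left out), H2-K1 (-0.07 without those replicates), Tap2 (0.34 with limma-voom, 0.18 with the replicate block, -0.59 to 0.66) and Nlrc5 (-1.77 to 0.82). In Lgr6 cells they were B2m (-1.01 to 0.027) and H2-T22 (-1.08 to 0.13), and in Lrig1 cells B2m (0.055 with library totals). The cause of these changes was not tested beyond the libraries left out. Over all genes, calls either way for WT Lgr5 over WT Lrig1 numbered 3369 with edgeR, 7206 with DESeq2 and 5048 with limma-voom. Tap2 had 18 to 343 counts per library, so small differences in it may not be detectable at this depth.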
